A study of Mus musculus with 12 samples.

Results

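Basic helix-loop-helix (bHLH) factors best known from mesodermal tissues were followed in cultured mouse oligodendrocyte precursor cells (OPCs). Their genes were Twist1, Twist2, Hand1, Hand2, Tcf15, Tcf21, Tcf24, Msc, Scx and Tal1, chosen by symbol with earlier results of these data known. They are 10 of the 55536 genes for which transcript estimates were summed. bHLH factors bind DNA as dimers at short motifs called E-boxes. Tissue-restricted members such as TWIST1 or TAL1 pair with the broadly expressed E proteins, and the ID proteins, which lack the DNA-binding stretch, hold E proteins away from them. In development these factors act in mesenchyme, heart, somites, tendon and blood, whereas the oligodendrocyte lineage depends on other bHLH genes, Olig1 and Olig2. Many developmental regulators are kept silent outside their own tissue by H3K27me3, the histone mark that EZH2, the catalytic subunit of Polycomb repressive complex 2, deposits, often at CpG-rich promoters.

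OPCs came from pooled brains of mouse pups at postnatal day 4 to 6 and were grown with PDGF-AA and bFGF. The source is labelled Sox10GFP+, from Sox10:Cre-RCE:loxP(EGFP) mice of mixed C57BL/6 and CD1 background, in which Sox10-driven Cre switches on EGFP in the whole oligodendrocyte lineage, and the protocol allowed either sorting of Sox10-GFP+ cells or magnetic selection for CD140a. Which of these served each library was not given. The 4 groups had 3 libraries each, from cultures of different litters. Ctr cells received neither agent. EZH2i cells received the EZH2 inhibitor EPZ011989 at 1.5 µM for 4 days, renewed every 48 h. IFN-γ cells received 100 ng/ml IFN-γ for 6 h. IFN-γ + EZH2i cells received the inhibitor for 4 days and then both agents together for the last 6 h. All samples carry the model label EAE, although the cells are from young pups.

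Ribosome-depleted total RNA was sequenced, and the libraries held between 17403893 and 66546052 estimated counts. Levels below are counts per 1000000 counts of a library (CPM), scaled by TMM factors, and comparisons between genes use TPM, the transcript unit that also adjusts for length. The oligodendrocyte lineage markers Sox10, Olig1, Olig2, Pdgfra, Cspg4 and Mbp were present in every group, with a summed level between 4875 and 5442 CPM in Ctr, 4116 and 4240 in EZH2i, 3047 and 4068 in IFN-γ, and 2397 and 3091 with both agents, and none of the 6 passed the test in either EZH2i comparison. Astrocyte markers were also present and summed to 450 to 941 CPM in Ctr libraries and 627 to 1419 CPM in EZH2i libraries. The transcript of the inhibitor's target, Ezh2, averaged 49.4 ± 5.21 CPM without any agent and 39.6 ± 7.66 CPM after the inhibitor alone (SD, n = 3), and did not pass (edgeR adjusted p = 0.806); the agent blocks the enzyme, so its mRNA is no check of the labels. In bulk RNA, a change in the number of cells that express a gene and a change in RNA per cell cannot be told apart.

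Twist1, Tcf24 and Tal1 rose with the inhibitor, with and without IFN-γ, and Tcf15 rose with IFN-γ, with and without the inhibitor. Hand2 was at 0 in Ctr and had counts in every library of the other groups, highest in mean with both agents. Its libraries spread widely, and without a replicate block it passed no comparison in edgeR. In both comparisons of the inhibitor it passed in DESeq2 and in an edgeR fit blocked on replicate number. For both agents against IFN-γ, where same-numbered libraries deviated together, the blocked fit gave an edgeR adjusted p of 2.07e-05. Msc was higher in mean with IFN-γ without passing in the edgeR fit without a block. DESeq2 and the block called it for IFN-γ against Ctr, and the block also for both agents against EZH2i. Scx did not pass any comparison, and Twist2, Hand1 and Tcf21 were at or near 0 counts in nearly all libraries. With the inhibitor alone, 3 of the 10 members, of which 7 were tested, were called higher and 0 lower, where 0.405% of the 18995 genes tested were called higher and 0 lower. At an unadjusted p under 0.05 in edgeR 0 members were lower, and 0 were called lower in DESeq2. With both agents against IFN-γ alone, again 3 were called higher and 0 lower, where 0.347% of genes were called higher and 0.00526% lower. Because the members were chosen with earlier results of these data known, these counts are a description only. The 2 comparisons of the inhibitor share no libraries, but each shares its libraries with the comparisons of IFN-γ. All came from a joint fit of the 12 libraries with a shared estimate of the spread, so the calls are not independent. A call means a Benjamini-Hochberg adjusted p under 0.05 in the quasi-likelihood test of edgeR over all genes tested.

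**Figure D1:**
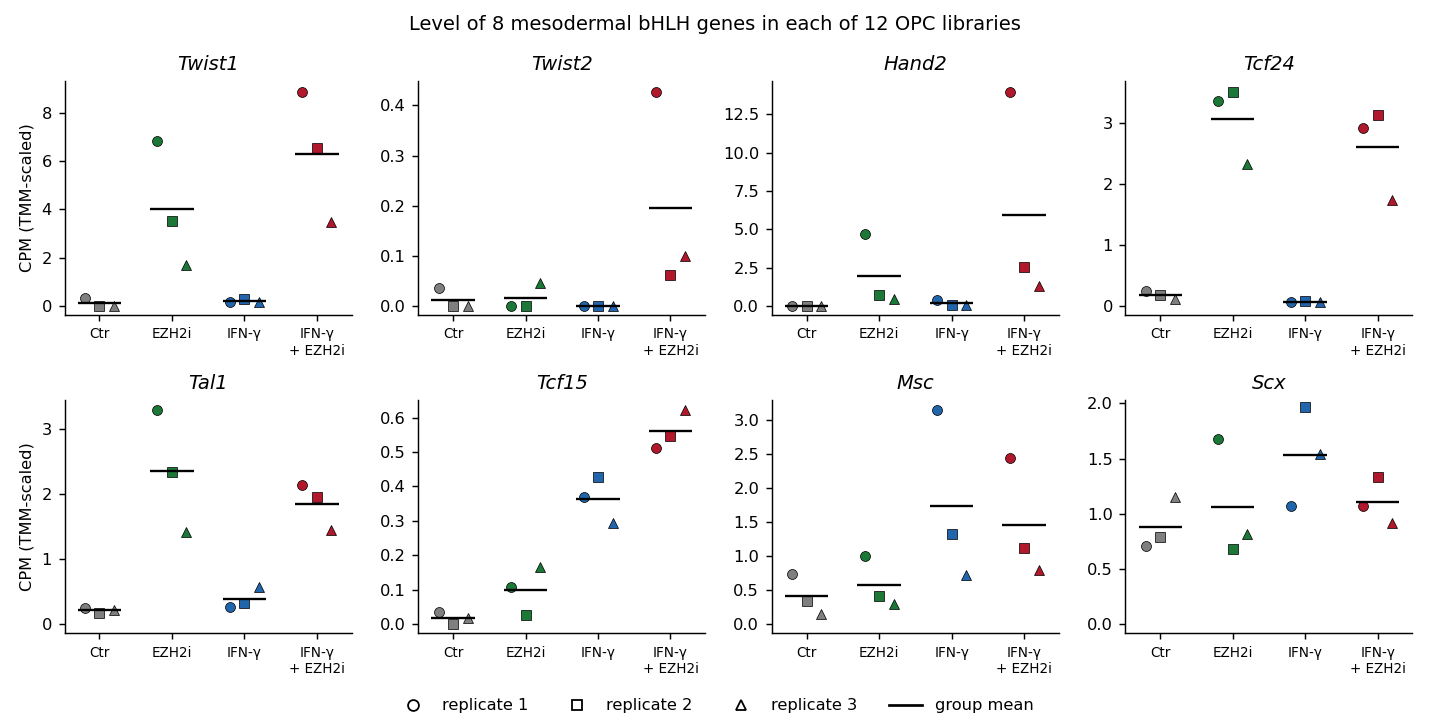
Level of 8 members in each of the 12 libraries, in TMM-scaled CPM on linear axes that differ between panels; colours are the 4 groups, symbols the replicate numbers and lines the group means of 3 libraries. Twist1, Tcf24 and Tal1 are high in both groups with EZH2i, Tcf15 is highest in both groups with IFN-γ, and Hand2 and Msc are highest in the library numbered 1 of each group in which they were detected.

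TWIST1 and TWIST2 are closely related regulators of cranial and limb mesenchyme, and TWIST1 is a known driver of epithelial-to-mesenchymal transition. Twist1 (chr12:33957671-33959829, plus strand, GRCm38) was at 0.319, 0 and 0 CPM in the Ctr libraries numbered 1, 2 and 3, all of it from 9 counts in the first. It stood at 6.83, 3.51 and 1.72 CPM in EZH2i, at 0.168, 0.293 and 0.154 CPM in IFN-γ, and at 8.89, 6.56 and 3.48 CPM with both agents. Every library with the inhibitor was above every library without it, and the libraries of each inhibitor group spread widely. The means were 0.106 ± 0.184 CPM in Ctr and 4.02 ± 2.59 CPM in EZH2i (SD, n = 3), a log2 fold change of 5.33 ± 0.96 (SE), with an adjusted p of 0.0398 in edgeR's quasi-likelihood test. Against IFN-γ alone the log2 fold change was 4.94 ± 0.86 (edgeR adjusted p = 0.0401). From the pooled counts, 432 in EZH2i and 9 in Ctr, the ratio was 38.6 with an exact 95% interval of 20.2 to 85.0 that covers counting error only.

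Both Twist1 calls lay close to the threshold in the edgeR fit without a block. DESeq2 gave adjusted p of 3.59e-04 for EZH2i against Ctr and 3.26e-04 for both agents against IFN-γ. The replicate block, applied to all libraries in the same fit, gave edgeR adjusted p of 2.66e-04 and 1.82e-04. The first of these thus also rests on pairing by replicate number, which was not accepted for comparisons with Ctr. Without a block, the first was lost, at a log2 fold change of 4.41 to 5.41 and an edgeR adjusted p of 0.0510 to 0.191, in the 8 fits that left out 1 of Ctr replicates 2 and 3, EZH2i replicates 1 and 2, IFN-γ replicates 1, 2 and 3, or IFN-γ + EZH2i replicate 2. The second was lost, at 4.61 to 5.27 and an edgeR adjusted p of 0.0574 to 0.180, in the 7 fits without Ctr replicate 2, EZH2i replicate 2, any IFN-γ replicate or IFN-γ + EZH2i replicates 1 and 2. Without Ctr replicate 1 the other Ctr libraries were at 0, and the fitted log2 fold change of EZH2i against Ctr, which then depends on the prior count, was 10.3 (edgeR adjusted p = 0.0265). The direction was upward in all 19 alternative fits of each comparison.

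Twist2, on chromosome 1, had 20 counts over the 12 libraries and was not tested. Ctr held 1 count, EZH2i 3 counts and IFN-γ 0, all at or under 3 counts per library, and with both agents the libraries held 10, 2 and 4. With both agents each library was above all 3 IFN-γ libraries. The group mean was at least 2.59-fold above the level of 3 counts per IFN-γ library, but 1.06-fold without IFN-γ + EZH2i replicate 1. The estimates for the single expressed transcript of Twist1 and of Twist2 were whole numbers in all 12 libraries (within 0.001), with no fractional split between this similar pair.

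HAND1 and HAND2 are regulators of heart, limb and sympathetic neuron development. Hand2 (chr8:57320983-57324633, plus strand) had no count in any of the 3 Ctr libraries, which at 3 counts corresponds to a level under 0.169 CPM in the shallowest. In EZH2i it was at 4.72, 0.712 and 0.440 CPM, in IFN-γ at 0.402, 0.0799 and 0.0463 CPM, and with both agents at 14.0, 2.55 and 1.27 CPM. Each library with the inhibitor was above all the Ctr and IFN-γ libraries, and the library numbered 1 was the highest in all 3 groups with counts. The mean in EZH2i was at least 18.0-fold above the level of 3 counts per Ctr library, a bound that fell to 5.29 without EZH2i replicate 1.

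That difference did not pass (edgeR adjusted p = 0.207), nor did the log2 fold change of 5.22 ± 1.34 between both agents and IFN-γ (edgeR adjusted p = 0.243). DESeq2 called both, at adjusted p of 5.73e-04 and 0.0197. Libraries with the same number deviated together in the comparison of both agents with IFN-γ, and a fit blocked on replicate gave a log2 fold change of 4.99 at an edgeR adjusted p of 2.07e-05. For both agents against EZH2i, Hand2 gave 1.62 ± 1.08 (edgeR adjusted p = 0.553), and with the block 1.63 at an edgeR adjusted p of 2.86e-04; in that comparison each library with both agents was above the EZH2i library of the same number. The fold reversed to -0.023 without IFN-γ + EZH2i replicate 1.

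Hand2 overlaps Hand2os1, a noncoding gene on the opposite strand. Hand2os1 had 57 counts in all and was not tested. Its counts were 0 in all 6 libraries without the inhibitor, 4, 2 and 8 in EZH2i, and 12, 23 and 8 with both agents. The kit keeps the strand, but whether the quantification used it is not given in the sources used here, so reads of the pair may not be cleanly separated. Hand1, the paralog, had 4 counts over all libraries.

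TCF24 is a little-studied member of the family. Tcf24 (chr1:9960163-9967932, minus strand) was at 0.248, 0.169 and 0.119 CPM in Ctr and at 3.36, 3.51 and 2.32 CPM in EZH2i. It was at 0.0670, 0.0799 and 0.0617 CPM in IFN-γ and at 2.91, 3.13 and 1.74 CPM with both agents. The inhibitor groups lay fully above the others, and their libraries spread less than those of Twist1 or Hand2. Its log2 fold change was 4.13 ± 0.38 (SE, edgeR adjusted p = 0.00319) with the inhibitor alone and 5.17 ± 0.41 (edgeR adjusted p = 6.43e-04) on top of IFN-γ. The IFN-γ libraries all lay below the Ctr libraries, as held for 9.52% of genes tested, but on 9 against 17 counts, and that difference did not pass (log2 fold change -1.28 ± 0.48, edgeR adjusted p = 0.195). Both inhibitor calls stood whichever of the 12 libraries was dropped, with edgeR adjusted p of at most 0.0242 and 0.0164.

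TAL1 is a master regulator of blood and endothelial fate. Tal1 (chr4:115056426-115071755, plus strand) was at 0.248, 0.169 and 0.221 CPM in Ctr and at 3.29, 2.33 and 1.41 CPM in EZH2i. It was at 0.268, 0.32 and 0.571 CPM in IFN-γ and at 2.14, 1.94 and 1.44 CPM with both agents. Again the groups with and without the inhibitor did not overlap. The log2 fold change was 3.40 ± 0.43 (SE, edgeR adjusted p = 0.00616) with the inhibitor alone and 2.19 ± 0.39 (edgeR adjusted p = 0.0401) on top of IFN-γ. The first was lost without Ctr replicate 2 (3.30, edgeR adjusted p = 0.0539) or Ctr replicate 3 (3.42, edgeR adjusted p = 0.0574). The second was lost when any 1 library other than EZH2i replicate 1 or 3 was dropped (10 of 12 fits), at log2 fold changes of 2.01 to 2.62 and edgeR adjusted p of 0.0508 to 0.223.

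Tal1 has several annotated starts, and the estimates placed 66.5% of its counts on Tal1-201, the transcript with the most upstream start, 26.9% on Tal1-204 and 6.61% on Tal1-203. Tal1-201 had 0 counts in all 3 Ctr libraries, 48.6, 48.5 and 86.3 in EZH2i, 6.05, 12 and 23.5 in IFN-γ, and 27.4, 63.7 and 31.3 with both agents. The 23 Ctr counts lay on the other 2 transcripts. The transcripts overlap, so these shares are estimates and were not tested.

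**Figure D2:**
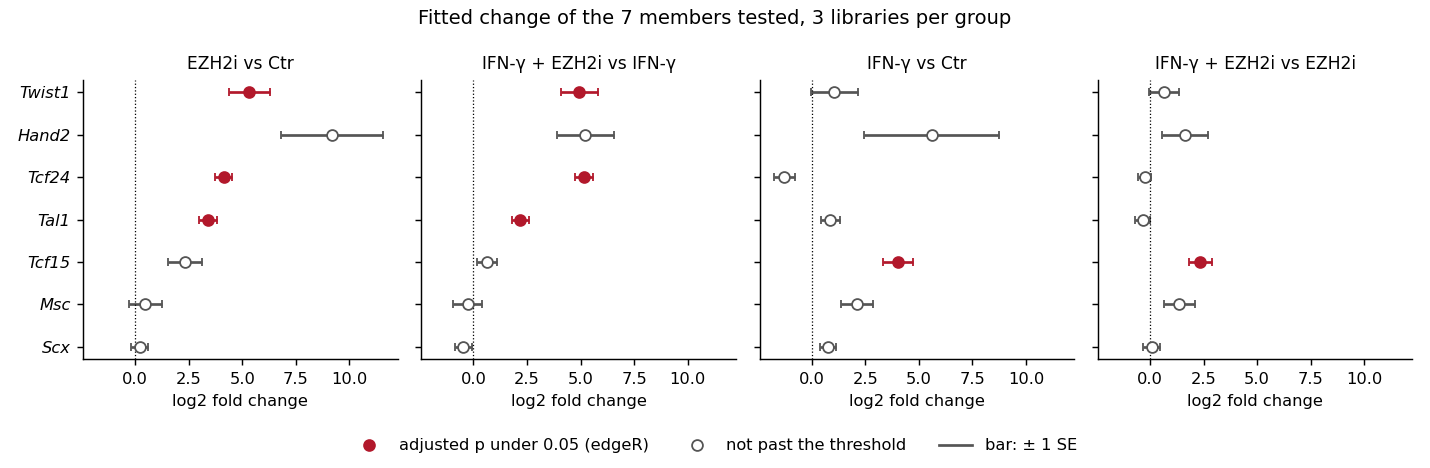
Fitted log2 fold change of the 7 members tested, with bars of ± 1 SE, in the 4 comparisons of 3 against 3 libraries; filled red points have an edgeR adjusted p under 0.05. Twist1, Tcf24 and Tal1 are filled in both comparisons of EZH2i and Tcf15 in both comparisons of IFN-γ, and Hand2 has the widest bars.

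The 250 bases before the start of Twist1, Hand2 and Tal1 are shown with those of Twist2, which stayed near 0 with the inhibitor alone. Twist1, Hand2 and Tal1 moved together with the inhibitor, Hand2 without passing in the edgeR fit without a block. The sequences are from RefSeq on GRCm38.p6, 5′ to 3′ on the plus strand, the strand of all 4 genes, and capitals mark CG dinucleotides (CpG). RefSeq windows matched 5 of the 10 members.
Twist1, chr12:33957421-33957670: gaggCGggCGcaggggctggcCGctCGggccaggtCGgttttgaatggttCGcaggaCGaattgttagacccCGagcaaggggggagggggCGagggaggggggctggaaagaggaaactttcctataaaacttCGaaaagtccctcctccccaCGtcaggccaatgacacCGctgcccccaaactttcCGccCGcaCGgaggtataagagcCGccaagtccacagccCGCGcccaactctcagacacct
Hand2, chr8:57320733-57320982: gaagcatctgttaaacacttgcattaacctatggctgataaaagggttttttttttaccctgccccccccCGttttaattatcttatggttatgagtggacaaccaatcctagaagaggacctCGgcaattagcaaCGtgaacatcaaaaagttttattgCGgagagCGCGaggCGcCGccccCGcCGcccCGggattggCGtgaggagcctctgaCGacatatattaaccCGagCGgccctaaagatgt
Tal1, upstream start, chr4:115056176-115056425: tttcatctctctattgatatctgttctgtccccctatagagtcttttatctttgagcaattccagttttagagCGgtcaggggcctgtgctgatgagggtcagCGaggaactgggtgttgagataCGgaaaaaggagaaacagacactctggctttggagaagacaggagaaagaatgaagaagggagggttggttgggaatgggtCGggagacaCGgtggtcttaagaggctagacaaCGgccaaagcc
Tal1, downstream start, chr4:115057561-115057810: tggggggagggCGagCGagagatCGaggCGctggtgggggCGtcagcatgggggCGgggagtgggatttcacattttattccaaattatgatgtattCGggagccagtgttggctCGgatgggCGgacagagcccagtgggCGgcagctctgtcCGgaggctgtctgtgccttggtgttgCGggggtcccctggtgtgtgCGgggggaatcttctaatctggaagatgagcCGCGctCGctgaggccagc
Twist2, chr1:91801211-91801460: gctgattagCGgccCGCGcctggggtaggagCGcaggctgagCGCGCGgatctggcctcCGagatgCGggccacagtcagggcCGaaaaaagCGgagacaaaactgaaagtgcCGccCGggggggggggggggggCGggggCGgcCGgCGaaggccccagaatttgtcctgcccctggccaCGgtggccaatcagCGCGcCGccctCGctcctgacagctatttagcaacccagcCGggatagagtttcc

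Twist1 held 18 CpG in these 250 bases and Hand2 15, against a median of 6 over 32851 windows of the same length. The upstream start of Tal1 held 6 and the downstream start 16. Twist2, which had too few counts to be tested for a response, held 23, the most of the 6 windows. Tcf24 had no window, and a relation of CpG number to response was not tested. Tcf21, listed at 0 throughout, held 5. The letters CANNTG, the core of an E-box, occurred at 2 places before Hand2 (CATCTG and CACTTG) and at none before the other 4 genes, whereas 66.2% of all windows held at least 1. TATAAA was found once before Twist1 (12.4% of all windows hold it) and CCAAT once before Twist1 and before Twist2 and at 2 places before Hand2 (33.8% of windows), each searched on both strands.

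TCF15 (paraxis) acts in somite and paraxial mesoderm formation. Tcf15 (chr2:152143561-152149097) had 1, 0 and 1 counts in the Ctr libraries and 3, 1 and 11 in EZH2i. With IFN-γ it had 11, 16 and 19, or 0.369, 0.426 and 0.293 CPM, and with both agents 12, 18 and 25, or 0.513, 0.547 and 0.621 CPM. The 6 libraries with IFN-γ lay above the 6 without it, and those with both agents above those with IFN-γ alone. The latter separation held for 6.08% of genes tested. Tcf15 did not pass for both agents against IFN-γ (log2 fold change 0.64 ± 0.47, SE, edgeR adjusted p = 0.995). Its log2 fold change with IFN-γ was 4.02 ± 0.72 (SE, edgeR adjusted p = 0.00327), and the ratio of pooled counts, 46 to 2, was 18.2 with an exact 95% counting interval of 4.77 to 155. On top of the inhibitor the log2 fold change was 2.36 ± 0.52 (edgeR adjusted p = 0.0138), which was lost without IFN-γ + EZH2i replicate 3 (2.26, edgeR adjusted p = 0.0572). Tcf15 was the 1 member called in each of these comparisons, where 8.75% and 8.07% of all genes were called in either direction. The inhibitor alone gave a ratio of 6.03 on 15 and 2 counts (exact 95% counting interval 1.40 to 54.4), which did not pass (edgeR adjusted p = 0.424).

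MSC (musculin, also MyoR) represses muscle genes and is also expressed in activated B cells. Msc (chr1:14753346-14755992, minus strand) was at 0.745, 0.339 and 0.153 CPM in Ctr and at 1.00, 0.411 and 0.304 CPM in EZH2i. It was at 3.15, 1.33 and 0.725 CPM in IFN-γ and at 2.44, 1.12 and 0.795 CPM with both agents. The IFN-γ and Ctr groups overlapped by a little, since the highest Ctr library was just above the lowest IFN-γ library. IFN-γ against Ctr gave a log2 fold change of 2.10 ± 0.74 (SE, edgeR adjusted p = 0.122), which DESeq2 called at an adjusted p of 0.0383. The replicate block gave an edgeR adjusted p of 1.39e-04 there, in a comparison that was not treated as paired. The gene lies within Gm9947, an antisense gene with 61 counts in all. Both agents against EZH2i gave 1.37 ± 0.71 (edgeR adjusted p = 0.370), and in this comparison, in which libraries of the same number deviated together, the replicate block gave 1.36 at an edgeR adjusted p of 0.00229. The block thereby took the members called there from 1 to 3. Over all 18995 genes it called 2084 higher and 1577 lower, against 1120 and 413 without it. The inhibitor gave 0.47 ± 0.76 and -0.26 ± 0.67, neither past the threshold (edgeR adjusted p = 0.976 and 0.999), and the sign of the first turned to -0.018 without Ctr replicate 3 and to -0.16 without EZH2i replicate 1, that of the second to 0.49 without IFN-γ replicate 1 and to 0.047 without IFN-γ + EZH2i replicate 3.

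SCX (scleraxis) marks tendon and ligament progenitors. Scx (chr15:76457452-76459458, plus strand) was at 0.709, 0.790 and 1.15 CPM in Ctr, at 1.68, 0.685 and 0.820 CPM in EZH2i, at 1.07, 1.97 and 1.54 CPM in IFN-γ, and at 1.07, 1.34 and 0.919 CPM with both agents. The groups overlapped in all 4 comparisons, and none passed (edgeR adjusted p of 0.318 to 0.999). Its log2 fold change with the inhibitor alone, 0.22 ± 0.39 (SE), turned to -0.25 without EZH2i replicate 1. Of its counts, 97.1% were assigned to Scx-202, a retained-intron transcript, and 2.86% to the protein-coding Scx-201, which had counts of 8.30 and 2.64 in 2 EZH2i libraries and 4.51 in 1 library with both agents, and 0 in the other 9. The gene lies within Bop1, a ribosome biogenesis gene on the opposite strand that averaged 129 ± 9.38 CPM in Ctr libraries and 143 ± 23.2 CPM in EZH2i libraries, so the origin of the Scx-202 reads is uncertain.

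Tcf21, a regulator of visceral and epicardial mesenchyme, had 0 counts in all 12 libraries. Counting alone would allow up to 3 counts per library, or 0.0455 CPM in the deepest library and 0.169 CPM in the shallowest.

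**Figure D3:**
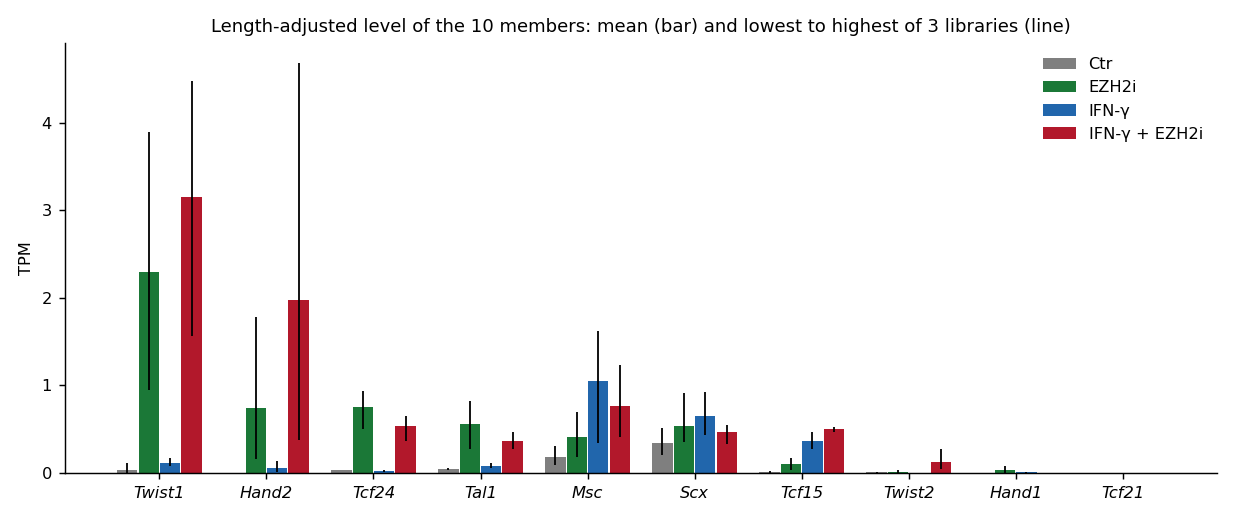
TPM of the 10 members in the 4 groups; bars are means of 3 libraries from a linear axis starting at 0, and lines run from the lowest to the highest library. Twist1 has the highest mean in both groups with EZH2i, at 2.29 and 3.15 TPM, and Msc the highest in IFN-γ, at 1.05 TPM.

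Adjusted for length, all members were lowly expressed, and their order changed with treatment. In Ctr, Scx led at 0.336 ± 0.157 TPM (SD, n = 3), followed by Msc at 0.183 ± 0.114 TPM, and the 2 overlapped. All Scx counts in Ctr were assigned to the retained-intron Scx-202, whose reads are of uncertain origin. Tal1, Twist1 and Tcf24 came next at 0.0447, 0.0381 and 0.0313 TPM, and each overlapped its neighbour. In EZH2i, Twist1 led at 2.29 ± 1.49 TPM. Its lowest library, at 0.947 TPM, was above every library of Tcf24, the next by mean, but not above the highest of Hand2, at 1.78 TPM. Tcf24, Hand2, Tal1, Scx and Msc ran from 0.750 to 0.405 TPM with every neighbour overlapping. In IFN-γ, Msc led at 1.05 ± 0.651 TPM ahead of Scx and Tcf15, in overlapping steps, and Tcf15 at 0.362 ± 0.0962 TPM stood clear of Twist1 at 0.112 ± 0.0536 TPM. With both agents, Twist1 at 3.15 ± 1.48 TPM and Hand2 at 1.98 ± 2.35 TPM led, and the first 8 members formed an overlapping series down to Twist2 at 0.123 ± 0.130 TPM.

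Over the 7 members that passed the filter on low counts, the median log2 fold change was 3.40 with the inhibitor alone and 2.19 on top of IFN-γ, and 1.05 and 0.66 for IFN-γ without and with the inhibitor. The median over all genes tested was between -0.0050 and 0.0060 in each. A gene that passed the filter through the treated group alone had to differ, so these medians carry no support. All 3 libraries of the treated group lay above all 3 of the other for 4 members with the inhibitor alone, where this held for 7.37% of genes tested, and for 5 of the 7 tested members on top of IFN-γ, where it held for 6.08%. For IFN-γ it held for 3 tested members without the inhibitor and 1 with it, at 13.5% and 11.8% of genes. These counts come from the same filtered members, so they carry no support either. Whether the inhibitor acted differently with IFN-γ was tested as an interaction, and 0 of the 7 members passed in edgeR or in DESeq2, and 0 of the 18995 genes passed in either tool. At an unadjusted p under 0.05 in edgeR there were 0 members and 127 genes. The largest fitted member interaction in absolute value, for Hand2, was a log2 difference of -3.98 ± 3.56 (edgeR adjusted p = 0.9999). Hand2 was at 0 in Ctr, so this value depends on the prior count, and its size and sign are not settled.

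The factors with which these proteins pair did not pass the test with the inhibitor. Adjusted for length, Tcf3, Tcf4 and Tcf12 averaged 26.2, 103 and 133 TPM in Ctr, above the 0.336 TPM of Scx, the highest member there. The E protein genes Tcf3, Tcf4 and Tcf12 were at 95.4 ± 20.3, 404 ± 22.3 and 418 ± 21.3 CPM in Ctr and at 88.2 ± 21.3, 320 ± 29.7 and 399 ± 37.5 CPM in EZH2i, and 0 of 3 passed in any comparison. Of the 4 ID genes, which encode inhibitors of E proteins, 0 passed with the inhibitor. Id3 rose with IFN-γ from 85.4 ± 18.6 to 185 ± 65.8 CPM (edgeR adjusted p = 0.0180), and Id2 rose with IFN-γ on top of the inhibitor from 154 ± 17.3 to 219 ± 31.3 CPM (edgeR adjusted p = 0.0461). Id1 averaged 21.5 ± 3.11 and 45.4 ± 16.2 CPM in Ctr and IFN-γ, and Id4 31.1 ± 3.81 and 49.8 ± 8.99 CPM in Ctr and EZH2i, neither past the threshold.

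TAL1 works in blood cells in a complex with LMO, LDB and GATA proteins, and of 9 genes tested from 12 listed partners 0 passed with the inhibitor. With IFN-γ alone, 4 rose and 1 fell, and on top of the inhibitor 3 rose and 0 fell, where 8.75% and 8.07% of all genes were called in either direction. Among them Runx1, a blood stem cell regulator, went from 1.10 ± 1.02 CPM in Ctr to 44.8 ± 17.7 CPM in IFN-γ (edgeR adjusted p = 2.51e-04), and Lmo2, the adaptor that binds TAL1, from 1.69 ± 0.445 to 3.47 ± 0.495 CPM (edgeR adjusted p = 0.0122). Both were named after their values were seen. Of 15 other tissue-restricted bHLH genes, such as Myod1, Mesp1 and Lyl1, only 3 passed the filter on low counts, 0 of them passed a test in any comparison, and Myf5, Msgn1, Ferd3l and Figla were at 0 in all 12 libraries.

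Of 14 mesenchymal transcription factors, 12 were tested, and 2 rose with the inhibitor alone. Tbx18, a T-box gene of the epicardium and of pericytes, was at 0.106, 0 and 0.0339 CPM in Ctr and at 22.9, 8.11 and 4.17 CPM in EZH2i, with a log2 fold change of 7.83 ± 1.03 (SE, edgeR adjusted p = 0.00837). Foxf1, a forkhead gene of visceral mesoderm, was at 1.03, 0.395 and 0.153 CPM in Ctr and at 10.2, 4.85 and 3.93 CPM in EZH2i (3.65 ± 0.66, edgeR adjusted p = 0.0398). On top of IFN-γ, 1 of the 12 rose, Tbx18 (5.14 ± 0.88, edgeR adjusted p = 0.0382), while Foxf1 was at 2.23 ± 0.57 (edgeR adjusted p = 0.197). The median log2 fold change of the 12 was 0.85 with the inhibitor alone and 1.37 on top of IFN-γ.

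Among tested markers of the cell types in which the members normally act, 0 passed with the inhibitor. Many markers fell under the filter on low counts and have no test. Tested were only 1 of 7 erythroid, 1 of 5 tendon, 1 of 5 cardiac and 1 of 6 skeletal muscle markers. For microglia and macrophages 2 of 9 were tested, and for mural cells 5 of 6. For fibroblasts, 0 of 6 tested genes passed, and the summed level of 8 was 6.74 to 12.3 CPM in Ctr and 7.48 to 10.3 CPM in EZH2i, with Dcn at 0.0118 and 0.0467 CPM in mean. For endothelium, 0 of 4 passed, and the sum of 7 was 14.0 to 21.2 CPM in Ctr and 25.2 to 40.1 CPM in EZH2i, and 13.0 to 19.6 CPM in IFN-γ and 21.1 to 36.4 CPM with both agents. These sums moved with the Tal1 level across the groups, and their part in it was not tested. Most of the sum in each group was Flt1, with means of 12.3 CPM in Ctr and 25.4 CPM in EZH2i, and Kdr ran between group means of 4.16 and 5.03 CPM. Cldn5 lay between 0.411 and 0.934 CPM, Pecam1 between 0.310 and 0.468 CPM and Tek between 0.0834 and 0.175 CPM, and Cdh5 and Tie1 were at or under 0.0751 CPM in mean in every group. Erythroid markers summed to 0.390 to 0.565 CPM in Ctr and 0.247 to 0.577 CPM in EZH2i, with Hbb-bt at 0 throughout. Mural markers summed to 13.3 to 26.0 CPM and 6.71 to 21.2 CPM in the same groups. Tendon, cardiac, skeletal muscle, and microglia and macrophage markers each summed to less than 2 CPM in every library, and Kera, Myl7 and C1qa were at 0 in all 12. Neuron markers summed to 36.7 to 52.9 CPM in Ctr and 52.6 to 91.8 CPM in EZH2i, but to 687 to 1285 CPM in IFN-γ, of which Tubb3, a neuronal tubulin gene, made up 916 ± 304 CPM on average. With IFN-γ alone 2 of 6 neuron markers, 1 of 6 fibroblast and 1 of 5 mural markers rose and 2 of 6 oligodendrocyte lineage markers fell, Pdgfra and Cspg4. The rises went with that of Tcf15 and the falls against it, and the part of either in the Tcf15 level was not tested.

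Of the genes next to the members on the chromosome, meaning every overlapping gene and the nearest protein-coding gene on each side, 0 of those tested passed with the inhibitor. Beside Twist1, Hdac9, a histone deacetylase gene, averaged 22.1 ± 3.65 and 24.2 ± 3.72 CPM in Ctr and EZH2i, and Ferd3l, another bHLH gene 28361 bases away, was at 0. Beside Hand2, Scrg1 was at 84.2 ± 16.2 and 87.3 ± 20.5 CPM. Beside Tal1, Stil, a centriole gene 13230 bases away, was at 21.7 ± 5.74 and 16.8 ± 4.07 CPM. Beside Tcf24, Mcmdc2 was at 1.57 ± 0.347 and 1.91 ± 0.537 CPM, and Ppp1r42, which lies 692 bases away, held 12 counts in all libraries together. With IFN-γ alone, 4 neighbours passed, Srxn1, Eya4, Mroh1 and Larp1. Srxn1, an antioxidant enzyme gene 32185 bases from Tcf15, rose from 78.0 ± 28.9 to 210 ± 87.0 CPM (edgeR adjusted p = 0.0176).

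Genes with the profiles closest to those of the members were sought among 14681 genes by the root mean square difference of centred log2 CPM over the 12 libraries. For Twist1 they were Ebf3 at 0.37, Tbx15 at 0.38 and Barx1 at 0.42, and Ebf3 went from 0.458 ± 0.106 CPM in Ctr to 8.42 ± 3.77 CPM in EZH2i. For Hand2 they were Tfap2b at 0.49, Gata6 at 0.49 and Tfap2a at 0.50, and Gata6 went from 0.0118 ± 0.0205 to 2.20 ± 1.76 CPM. For Tcf24 they were Foxl2os at 0.24, Lin28b at 0.27 and E030030I06Rik at 0.29, and Lin28b, which encodes an RNA-binding protein that blocks let-7 maturation, went from 0.293 ± 0.163 to 3.29 ± 0.802 CPM. For Tal1 they were Foxd1 at 0.29, Fzd6 at 0.30 and Cacna1g at 0.30. For Msc they were Dusp5, Nrp2 and Rasgrf2 at 0.20 to 0.21, and Nrp2, a semaphorin co-receptor gene, averaged 27.1 ± 5.84 CPM in Ctr and 79.2 ± 35.6 CPM in IFN-γ. For Scx they were Zfp566, Gm16754 and Gm3365 at 0.22 to 0.23. These likenesses rest on shared libraries and are a description without a test.

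**Figure D4:**
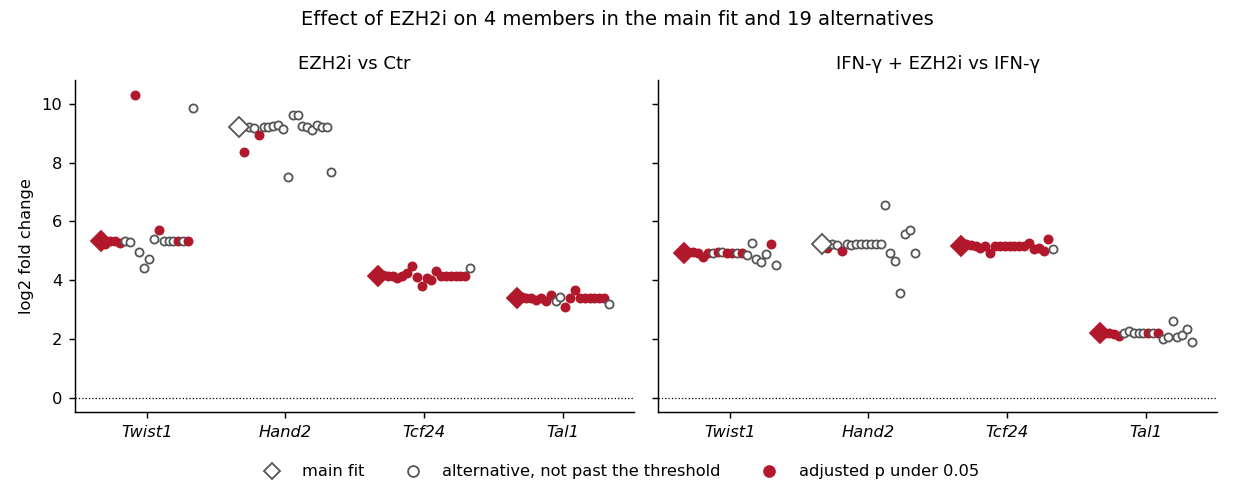
Log2 fold change of 4 members in both comparisons of EZH2i, as reported (diamonds) and in 19 alternative fits (circles); red marks an edgeR or DESeq2 adjusted p under 0.05. All points lie above 0, Tcf24 is red in 18 of 19 alternatives in both panels, and Hand2 in 2 of 19.

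Across alternatives the direction with the inhibitor was steadier than the calls. For Twist1, 8 of 19 alternative fits of EZH2i against Ctr and 10 of 19 of both agents against IFN-γ gave a call, for Tal1 16 and 6, for Tcf24 18 and 18, and for Hand2 2 and 2. All 19 were above 0 for each of these 4 members in each comparison. The library numbered 1 was the highest for Hand2 in 3 of 3 groups with more than 3 counts in a library, for Msc in 4 of 4, and for Twist1 and Tal1 in 3 of 4. Without the 4 libraries numbered 1, a choice made after the data were seen that leaves 2 libraries per group, 0 members and 0 of 19627 genes passed either EZH2i comparison in edgeR, and at an unadjusted p under 0.05 5 and 4 members were higher. The log2 fold changes with the inhibitor alone were then 4.41 for Tcf24 (edgeR adjusted p = 0.0859) and 3.18 for Tal1 (0.104), and Hand2 stayed at 0 in Ctr.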

How the data were processed

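Total RNA of 12 OPC cultures was sequenced from a strand-keeping, ribosome-depleted library kit. The deposited values are estimated counts per transcript and TPM, which the authors computed with Salmon 0.8.2; mm10 (GRCm38) is the build named in the submitters' processing notes. The study's methods name EnsEMBL annotations for a STAR alignment, and the transcript set and strand setting given to Salmon are not given in the sources used here. All 141862 transcripts matched GENCODE vM21, by which estimated counts (rounded after summing) and TPM were summed to 55536 genes. Separate deposited tables hold the authors' own fold changes and p-values per comparison, and were not used.

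All 12 libraries were fitted together on group with edgeR 4.0.16 (R 4.3.3; TMM factors, filterByExpr, quasi-likelihood test, Benjamini-Hochberg over 18995 genes), and the code was tested on simulated data. Alternatives were DESeq2 1.42.0, its size factors in edgeR, no filter, a replicate block, only the libraries compared, length-scaled TPM, and each library left out. Fitted folds of genes at 0 in a group depend on the prior count. Correlations of same-numbered deviations were 0.604, 0.493 and 0.642 for both agents against IFN-γ and 0.530, 0.496 and 0.621 for both agents against EZH2i, so the numbers pair libraries there. Against Ctr, these correlations for replicates 1, 2 and 3 were 0.441, 0.0467 and 0.495 for EZH2i and 0.490, 0.0854 and 0.544 for IFN-γ. Only replicate 2 fell short of the threshold of 0.1 there, and the comparisons with Ctr were not treated as paired. No 2 libraries were identical, and replicates differed by far more than counting noise (chi-square per gene 31.3 to 181).

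The members and the gene lists were chosen with earlier results of these data known. All 10 members are named, with all E protein and ID genes; from other lists genes called with EZH2i (at most 4); the 3 nearest profiles of each member averaging 1 CPM or more; and neighbouring genes. Other genes of the lists that the text names, such as Runx1, Lmo2 and single cell type markers, were chosen after their values were seen. A gene of the marker lists is not reported here.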

Additional observations from a re-analysis of the deposited data

How the results depend on the processing

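The number of members called with EZH2i against Ctr was 3, and 1 to 3 with any single library left out; for both agents against IFN-γ it was 3, and 1 to 3, and it was 1 on length-scaled TPM. Without the 4 libraries numbered 1, a setting added after the data were seen, it was 0 in both of these and 0 for both agents against EZH2i; with 2 libraries per group 0 genes in all passed the EZH2i comparisons. For IFN-γ against Ctr the count of 1 became 2 in DESeq2, and 0 with only the libraries of the comparison, where Tcf15 fell under the filter. For both agents against EZH2i the count of 1 became 0 to 1 with 1 library left out. With the replicate block it was 3 for IFN-γ against Ctr, where replicate 2 fell short of the pairing threshold of 0.1. It was also 3 for both agents against EZH2i, where same-numbered libraries did pair. For EZH2i against Ctr and for both agents against IFN-γ the block and DESeq2 each gave 4, adding Hand2. These settings also called more of the 18995 genes. In these comparisons, in that order, the block called 657 and 591 genes higher and DESeq2 312 and 254, against 77 and 66 as reported. For IFN-γ against Ctr the block called 2360 higher and 1672 lower, and DESeq2 1500 and 685, against 1264 and 399. For both agents against EZH2i the block called 2084 and 1577, against 1120 and 413. The interaction gave 0 members in every fit run, and could not be fitted on only the libraries of a comparison, since it needs all 4 groups. Of single members, the log2 fold change of Msc ranged from -0.16 to 1.32 (EZH2i against Ctr) and from -0.84 to 0.49 (both against IFN-γ) over the single libraries left out, that of Scx from -0.25 to 0.49 (EZH2i against Ctr; -0.39 without the libraries numbered 1), so their directions there are not settled. That of Hand2 for both against EZH2i ranged from -0.023 to 3.37, both ends coming from the loss of the high library of 1 arm alone, and was 1.63 with the block and 1.72 without the 4 libraries numbered 1. The cause of these changes was not tested. Depth limits Twist2, Hand1, Tcf15 and Tcf21, which rest on few counts or none.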
